A study of Mus musculus with 38 samples.

Results

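Mice that were fasted in the warm, and so did not enter torpor, were compared with fed mice sampled before any food was taken away. The comparison used 8 of the 38 libraries of the series, all from the soleus, a small slow postural muscle of the calf, of male C57BL/6J mice. Each library came from 1 mouse. Capped 5′ ends of RNA were sequenced by nAnT-iCAGE, a form of cap analysis of gene expression that counts transcripts at the promoter where they start. The Pre group (4 libraries) was fed freely at the low ambient temperature of the torpor protocol and was sampled on day 1 at zeitgeber time 22. The HiT group (4 libraries) was kept at an ambient temperature of 32 °C, lost its food on day 2 at zeitgeber time 0 and was sampled at the same hour of that day without having entered torpor. Food, temperature and day therefore all differ between the groups, and their shares in any difference cannot be told apart from these 8 libraries alone. The 28 libraries whose deposited columns are named in the same form as those of HiT and Pre are called a run here. The labels do not name a sequencing run. A pair of day 2 groups of this run was used beside HiT and Pre. Dep (4 libraries) was fasted at the low temperature and kept out of torpor by touching the animal. Fed (4 libraries) kept its food at the low temperature. Dep differs from HiT in temperature and handling, and Fed differs from HiT in food and temperature. The deposited descriptions of HiT and Fed are not of one mind on whether food was present, and the groups were read here as the study's methods describe them. One or both soleus muscles of a mouse were used, and animals were neither randomized nor assessed blind.

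The HiT libraries held 28416006 to 30003804 tags in promoter clusters and the Pre libraries 24961938 to 29548749. Tags at a genomic copy of ribosomal RNA on chr17:39846354-39848202 took 6.30, 9.72, 11.9 and 18.2% of the tags of HiT 1 to 4 and between 6.11 and 9.73% of the Pre libraries. HiT 4 stood apart, with 40.3% of its tags in its 10 largest clusters against 16.7 to 27.9% in the other HiT libraries. The part of this in the results was not tested, and the counts of changed promoters without HiT 4 are given with the overall counts. On log2 levels, the distance between a HiT and a Pre library was 2.30 to 2.97, within HiT 1.23 to 2.28 and within Pre 0.966 to 1.49, so no HiT library was as close to a Pre library as any HiT pair was to each other. All 10 defining soleus genes had a promoter in the table, and their summed level was 20430 to 25010 CPM (tags per 1000000 tags, after scaling by TMM as in the tests) in HiT and 24560 to 25910 in Pre.

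In a fast, muscle turns from glucose to fatty acids. PPAR receptors switch on genes for fat use, and pyruvate dehydrogenase kinases close the entry of pyruvate into the citric acid cycle. Falling insulin frees FOXO factors, which drive ubiquitin ligases and autophagy genes, while the SREBP factors that insulin keeps active lose their hold on lipid synthesis. Soleus is rich in mitochondria and slow myosin, and it is also a site of shivering and of calcium pumping, both of which an animal uses for heat in the cold and needs less in the warm.

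HiT and Pre differed at 3604 of 10776 promoter clusters tested, 1997 higher in HiT (18.5%) and 1607 lower (14.9%), by edgeR's quasi-likelihood test at an adjusted p below 0.05. Counting 1 cluster for each of 9054 genes, 1785 (19.7%) were higher and 1327 (14.7%) lower. Most calls were small. The median log2 fold change was 0.54 among the higher and −0.51 among the lower promoters, and 425 higher and 203 lower promoters passed a log2 fold change of 1. Without HiT 4 the test called 1682 higher and 1387 lower. The split of the calls depended on the scaling: 55.4% of the calls were higher in HiT with TMM, 41.4% with upper-quartile scaling (1508 higher, 2139 lower) and 29.6% with library size alone (584 higher, 1390 lower). The median log2 fold change of all clusters moved from 0.04 with TMM to −0.13 with library size alone, so small differences are read below against that shift. The same fit called 1648 clusters higher (15.3%) and 1213 lower (11.3%) in HiT than in Dep, and 2507 higher (23.3%) and 2150 lower (20%) in HiT than in Fed. All of these comparisons share the HiT libraries, and their values are set side by side and not correlated.

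**Figure D1:**
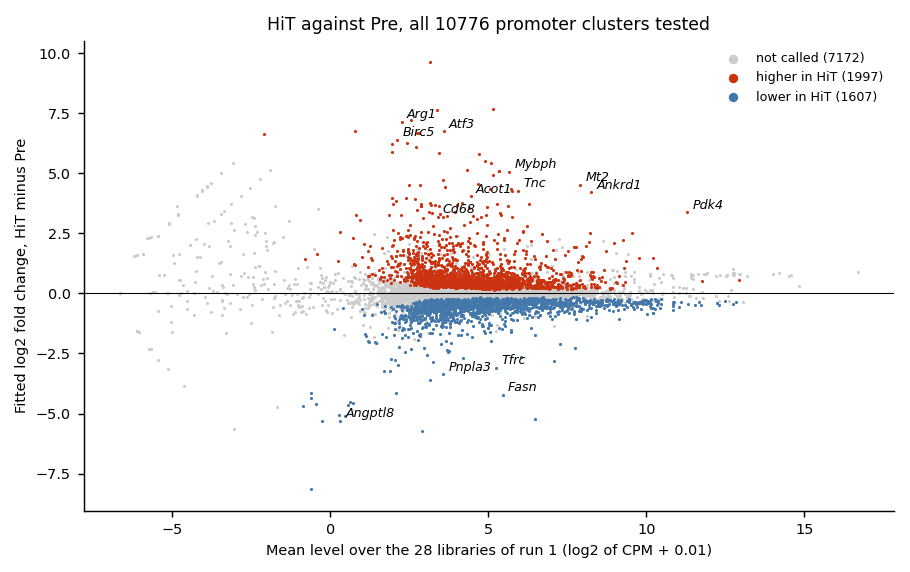
Fitted log2 fold change of HiT over Pre (vertical axis) against the mean level over the 28 libraries of the run (horizontal axis, log2 of CPM + 0.01) for 10776 promoter clusters. Red points are the 1997 promoters higher in HiT, blue points the 1607 lower ones and grey points those not called, and named genes lie at the edges of the cloud.

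The promoters below are those of genes on which the results turn: the fuel switch gene Pdk4, the stretch-responsive Ankrd1 and Mybph, a pair of histone genes, the macrophage gene Cd68, the AP-1 gene Junb, the lipogenic Thrsp, the ATP synthase gene Atp5g1 and the upstream promoter of Ppargc1a. Each run covers 100 bases before the CAGE peak to 10 after it, or as much of that as the RefSeq promoter window holds, read 5′ to 3′ on the gene's strand from RefSeq (GRCm38.p6). Capitals mark the deposited peak base and any match to TATAAA (the core of the promoter box of that name), to the CCAAT box, or to the AP-1 (TGACTCA), CRE (TGACGTCA), E-box (CACGTG), FOXO (GTAAACA), E2F (TTTCGCGC), heat shock (GAANNTTC), D-box (TTATGTAA) or ERR (TCAAGGTCA) letters, on either strand, none of which contains another.
Pdk4, chr6:5496301-5496411, minus strand: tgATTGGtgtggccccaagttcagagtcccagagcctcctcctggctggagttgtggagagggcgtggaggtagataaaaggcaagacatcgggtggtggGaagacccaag
Ankrd1, chr19:36119833-36119943, minus strand: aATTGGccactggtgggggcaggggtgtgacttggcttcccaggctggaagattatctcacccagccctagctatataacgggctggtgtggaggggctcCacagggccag
Mybph, chr1:134193337-134193447, plus strand: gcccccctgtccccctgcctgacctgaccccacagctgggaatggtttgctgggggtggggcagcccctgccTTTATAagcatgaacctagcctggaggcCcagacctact
Hist1h2ah, chr13:22035594-22035698, minus strand: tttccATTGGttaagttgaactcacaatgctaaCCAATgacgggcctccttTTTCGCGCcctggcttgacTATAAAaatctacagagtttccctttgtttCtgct
Hist1h3b, chr13:23752243-23752353, plus strand: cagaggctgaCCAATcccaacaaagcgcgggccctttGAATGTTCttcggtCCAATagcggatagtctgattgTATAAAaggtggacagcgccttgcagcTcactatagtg
Cd68, chr11:69666123-69666233, minus strand: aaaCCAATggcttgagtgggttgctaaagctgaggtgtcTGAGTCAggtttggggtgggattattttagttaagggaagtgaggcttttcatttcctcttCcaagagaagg
Junb, chr8:84978710-84978820, minus strand: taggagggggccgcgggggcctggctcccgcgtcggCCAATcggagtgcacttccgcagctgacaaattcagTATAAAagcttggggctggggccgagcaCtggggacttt
Thrsp, chr7:97417511-97417621, minus strand: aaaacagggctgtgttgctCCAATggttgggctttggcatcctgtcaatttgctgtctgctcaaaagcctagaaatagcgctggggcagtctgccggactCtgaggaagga
Atp5g1, chr11:96075616-96075726, minus strand: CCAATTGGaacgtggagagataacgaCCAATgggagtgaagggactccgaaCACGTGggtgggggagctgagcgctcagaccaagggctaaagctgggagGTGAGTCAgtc
Ppargc1a upstream promoter, chr5:51567717-51567827, minus strand: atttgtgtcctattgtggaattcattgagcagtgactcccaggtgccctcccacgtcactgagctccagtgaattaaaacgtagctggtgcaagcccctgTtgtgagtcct

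Both printed histone stretches hold TATAAA and more than 1 CCAAT, and Hist1h2ah also holds the E2F letters. In the same stretch of Hist1h3c and Hist1h2af, which are not printed, no TATAAA was found, and Hist1h2af held the E2F letters. The deposited peak is not the initiating base itself in most promoters. Of 4835 promoters with a window, 78.3% had the pyrimidine-purine step at which transcription usually starts with its purine 2 bases downstream of the deposited peak, against 22.7% with the purine at the peak, and the plus (77.5%) and minus (79.2%) strands were alike in this.

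Several genes of fuel use rose by a wide margin. Pdk4 encodes the kinase that inactivates pyruvate dehydrogenase. Its level was 5104, 3960, 4544 and 4594 CPM in HiT 1 to 4 and 569.7, 297, 495 and 392 CPM in Pre 1 to 4. The groups were far apart, with a log2 fold change of 3.38 (SE 0.31, adjusted p = 1.24e-08), and the Dep mean of 5101 ± 484 CPM (SD, n = 4) did not differ from HiT by the test (log2 difference −0.17, adjusted p = 0.72). Acot1 and Acot2, which split fatty acyl-CoA, are neighbours with near-identical sequences, so reads could be shared between them. Acot1 was at 57.4, 32.3, 32.2 and 41.3 CPM in HiT against 2.02, 2.22, 2.60 and 3.10 CPM in Pre (log2 fold change 4.04, SE 0.33, adjusted p = 2.1e-09). Of the 29 genes of fat use described next, it was the 1 that was also higher in HiT than in Dep (20.8 ± 3.92 CPM, log2 difference 0.97, adjusted p = 0.013). Angptl4, a fasting-induced inhibitor of lipoprotein lipase, was at 109.7, 74.0, 66.6 and 118 CPM in HiT and at 13.4, 6.81, 4.71 and 4.10 CPM in Pre (log2 fold change 3.66, SE 0.49). Ucp3, a mitochondrial carrier induced by fatty acids, was at 55.0 to 88.1 CPM in HiT and 9.27 to 14.04 CPM in Pre (log2 fold change 2.49, adjusted p = 3.3e-07), with a Dep mean of 64.6 ± 4.05 CPM.

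In the list of fatty acid oxidation and fuel switch genes, 12 of 29 were higher in HiT and 2 lower, with a median log2 fold change of 0.18 against 0.03 for all genes, and 6 were lower with upper-quartile scaling. Beside the genes above, those that rose included Mlycd (malonyl-CoA decarboxylase, which lifts the brake on fat entry), the droplet coat genes Plin5 and Plin2, the carnitine carrier Slc22a5, the triglyceride lipase Pnpla2 and Cpt2. Cpt1b, the muscle gate for fatty acids into mitochondria, was at 110 to 138 CPM in HiT and 129.8 to 163 CPM in Pre, and it did not pass the test (log2 fold change −0.18, adjusted p = 0.15). Acadm, a medium-chain dehydrogenase, fell by 0.42 on the log2 scale. Against Dep, 12 of the 29 were lower in HiT and 1 was higher.

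FOXO targets rose in part. Of 18 FOXO and atrophy genes, 10 were higher in HiT and none lower (median log2 fold change 0.76), and 4 were higher with library size alone. The muscle ubiquitin ligase Trim63 was at 382, 241, 283 and 293 CPM in HiT and 174, 169, 140.1 and 128 CPM in Pre (log2 fold change 0.97, SE 0.27, adjusted p = 0.006). Fbxo32, its usual partner in atrophy, was at 178 to 227 CPM in HiT and 101 to 125 CPM in Pre (log2 fold change 0.80, adjusted p = 0.0018). These values did not overlap, and yet Trim63 was higher still in Dep (682 ± 243 CPM, log2 difference of HiT from Dep −1.19, adjusted p = 0.0016). Foxo1 itself was at 23.0 to 27.8 CPM in HiT and 24.4 to 29.9 CPM in Pre (log2 fold change −0.12, adjusted p = 0.71) and was lower in HiT than in Dep (42.8 ± 15.6 CPM, adjusted p = 0.0068). Depp1, Sesn1, Eif4ebp1, Irs2, Txnip, Foxo3, Cdkn1a and Fbxo30 made up the rest of the 10. Among 22 autophagy and lysosome genes 5 were higher (22.7%) and 3 lower (13.6%), near the 19.7% and 14.7% of all genes. Gabarapl1, a coat protein of the autophagosome, was at 172 to 232 CPM in HiT and 67.2 to 87.2 CPM in Pre (log2 fold change 1.44, adjusted p = 1.5e-05), while Map1lc3a, of the same family, fell by 0.41 on the log2 scale. The autophagy count fell to 2 higher when HiT 1 or HiT 4 was left out, to 3 without Pre 4 and to 1 with library size alone. With upper-quartile scaling 2 were higher and 5 lower.

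Lipid synthesis was the list with the lowest median. Of 19 fatty acid synthesis genes, 13 were lower in HiT and 1 higher (median log2 fold change −0.97), against a background of 14.7% lower over all genes. Fasn, the fatty acid synthase, was at 3.94, 5.58, 3.90 and 4.33 CPM in HiT and 124, 101, 43.1 and 65.2 CPM in Pre. The HiT values were tight and all far under Pre (log2 fold change −4.23, SE 0.60, adjusted p = 5.6e-06). Thrsp (Spot 14, which attends lipogenesis) was at 13.9 to 25.5 CPM in HiT and 54.9 to 176 CPM in Pre (log2 fold change −2.65), and Pnpla3, a lipid droplet acyltransferase and lipase under SREBP control, was at 1.90 to 2.31 CPM against 12.5 to 32.8 CPM (log2 fold change −3.37). Acly, Slc25a1 and Me1, which make and move the acetyl-CoA and NADPH for the synthesis, were lower by 1.55, 1.54 and 1.37 on the log2 scale (fold changes −1.55, −1.54 and −1.37). G0s2, an inhibitor of the lipase that opens fat stores, was at 24.0 to 41.9 CPM in HiT and 151 to 319.7 CPM in Pre. Angptl8, a feeding-induced partner of the lipase inhibitors, was at 0 to 0.15 CPM in HiT (1, 0, 2 and 3 tags). In Pre it was at 1.70 to 3.17 CPM (91, 50, 42 and 88 tags, log2 fold change −5.29). Scd1, the stearoyl-CoA desaturase, also fell but with wide spread, at 44.9 to 128 CPM in HiT and 141 to 719 CPM in Pre (log2 fold change −2.28, SE 0.83, adjusted p = 0.036). Acacb, whose product malonyl-CoA restrains fat entry into mitochondria, was the member that rose, by 0.47 on the log2 scale, a call lost with library size alone. Against Dep, 2 of the 19 were higher in HiT (G0s2 and Fads1) and 2 lower (Scd1 and Acacb), and Fasn, Thrsp, Pnpla3 and Me1 did not pass that test (adjusted p from 0.19 to 0.94). Against Fed, 14 were lower in HiT and 1 higher. The adipocyte marker Plin1 moved with this group, at 2.86 to 9.71 CPM in HiT and 9.74 to 43.0 CPM in Pre (log2 fold change −2.07, adjusted p = 0.035). The Plin1 call was lost without HiT 1, HiT 2, HiT 3, Pre 1 or Pre 2 (adjusted p from 0.064 to 0.13). Of 10 adipocyte markers with a promoter, 1 fell and 1 rose, the rise being lost with library size alone, and their summed level was 2890 to 4184 CPM in HiT and 2710 to 3482 CPM in Pre. The part of adipocytes in the fall of the lipogenic genes was not tested, and in bulk muscle fewer cells of a type and less RNA per cell cannot be told apart.

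Cholesterol synthesis showed 7 of 13 genes lower and none higher (median log2 fold change −0.41). Mvd, a mevalonate pathway enzyme, was at 3.72 to 4.56 CPM in HiT and 7.61 to 9.24 CPM in Pre (log2 fold change −0.97, SE 0.18). Insig1, which holds SREBP in the endoplasmic reticulum and is itself an SREBP target, was at 10.3 to 14.1 CPM in HiT and 17.1 to 25.9 CPM in Pre (log2 fold change −0.79).

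Glucose uptake and glycogen use were lower across most of the list, with 14 of 22 genes lower in HiT and 2 higher (median log2 fold change −0.42). Ppp1r3c, which targets a phosphatase to glycogen and favours its synthesis, was at 54.1, 45.5, 69.6 and 62.1 CPM in HiT and 237, 231, 219 and 307 CPM in Pre. It fell the most of the list (log2 fold change −2.10, SE 0.20, adjusted p = 2.2e-08), and HiT was also below Dep (143 ± 31.7 CPM, adjusted p = 2e-05). Slc2a4, the insulin-responsive glucose transporter GLUT4, was at 160.1 to 199 CPM in HiT and 271 to 304 CPM in Pre (log2 fold change −0.72, SE 0.09, adjusted p = 5.7e-07). Hk2, the first enzyme of glucose use in muscle, was at 115 to 147 CPM in HiT and 186 to 208 CPM in Pre (log2 fold change −0.59), and its Dep mean was above both at 266 ± 27.5 CPM. Pfkfb3, Slc16a3 and Pygm fell by 1.73, 0.89 and 0.63 on the log2 scale. Slc2a1 and Hk1, the general transporter and hexokinase, were the members that rose (0.59 and 0.35), and no member passed as higher with library size alone, with upper-quartile scaling, or without HiT 1, HiT 4, Pre 1, Pre 3 or Pre 4.

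**Figure D2:**
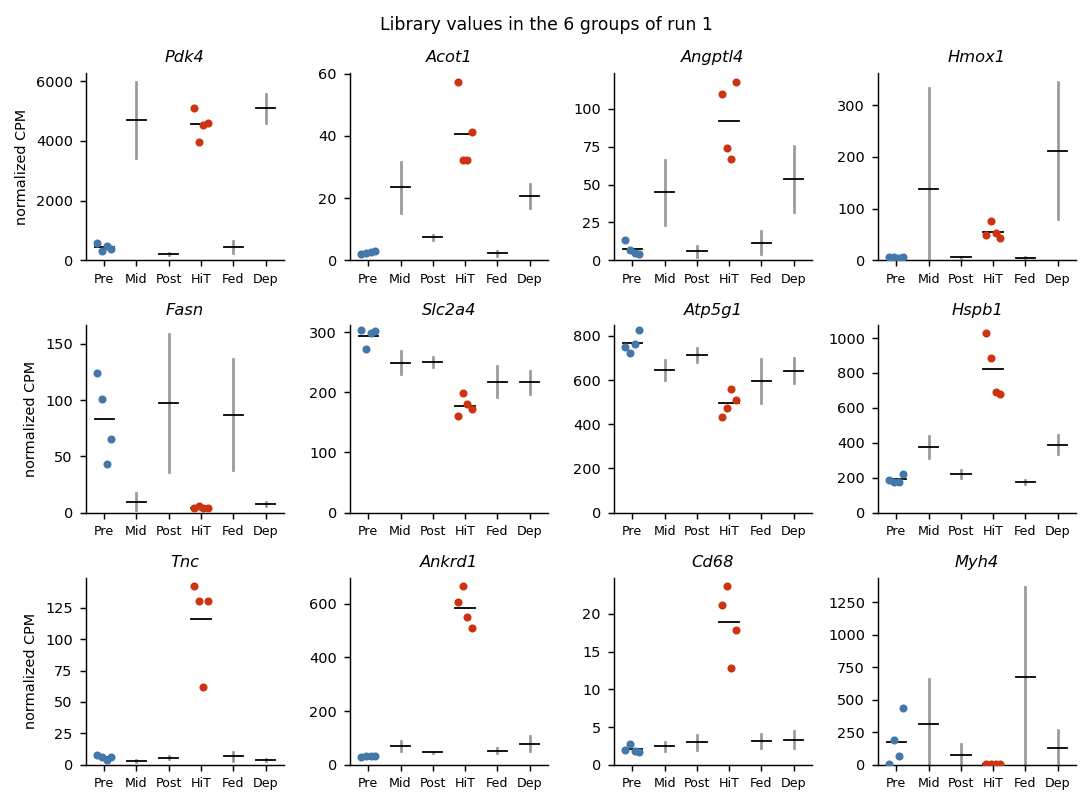
Normalized CPM (vertical axes, from 0) of single promoters in the 6 groups of the run. Points are the HiT (red) and Pre (blue) libraries, black lines group means and grey bars mean ± SD of the other groups; Pdk4, Acot1 and Angptl4 were high in every fasted group, whereas Tnc, Ankrd1 and Cd68 were high in HiT and low in the other groups.

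The respiratory chain fell as a block. Of 80 nuclear genes for its subunits, 62 were lower in HiT and none higher (median log2 fold change −0.39), against 14.7% of all genes lower. In 62 of the 80, all HiT values lay below all Pre values, where the share over all genes was 16.7%. Cox5a, a cytochrome c oxidase subunit, was at 1056, 1057, 1099 and 1166 CPM in HiT and 1676, 1611, 1620 and 1761 CPM in Pre. Its log2 fold change of −0.61 (SE 0.08, adjusted p = 2.5e-06) rested on libraries that hardly varied within a group. Atp5g1, an ATP synthase subunit, was at 434 to 562 CPM against 723 to 828 CPM (log2 fold change −0.63), and Ndufb9, of complex I, at 905 to 1001 CPM against 1380 to 1511 CPM (log2 fold change −0.59). The summed level of the 80 genes was 54930, 58470, 63600 and 58690 CPM in HiT and 75300 to 77900 CPM in Pre. The sum was 69470 to 79270 CPM in Dep and 52470 to 69740 CPM in Fed, so that Fed overlapped HiT. Against Dep, 50 of the 80 were lower in HiT and none higher, where 11.3% of all clusters were lower. Against Fed, 10 of the 80 were lower and 4 higher, where 20% of all clusters were lower and 23.3% higher. The citric acid cycle went with it, with 15 of 18 genes lower and none higher (median −0.32). Cs, citrate synthase, was at 513 to 541 CPM in HiT and 629.7 to 644 CPM in Pre (log2 fold change −0.28, SE 0.06, adjusted p = 0.0014), a small difference between groups that were each very tight.

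The coactivator PGC-1α, which drives mitochondrial genes, was made from a different mix of promoters. Ppargc1a has a promoter at chr5:51553874 and another 13853 bases upstream at chr5:51567727. The upstream promoter was at 19.9, 38.3, 45.8 and 34.8 CPM in HiT and 5.75, 2.15, 1.58 and 18.2 CPM in Pre (log2 fold change 2.32, SE 0.64, adjusted p = 0.006). The downstream promoter was at 19.02, 22.5, 17.9 and 22.8 CPM in HiT and 42.4, 41.4, 41.5 and 42.1 CPM in Pre (log2 fold change −1.03, SE 0.17, adjusted p = 2.8e-05). The upstream promoter gave 51.2 to 71.9% of the tags of the pair in HiT and 3.68 to 30.1% in Pre, while the summed level of the pair overlapped between the groups, at 39.0 to 63.7 CPM in HiT and 43.0 to 60.3 CPM in Pre. In Dep the upstream promoter was at 212 ± 42.4 CPM, well above HiT (log2 difference −2.61, adjusted p = 0.0025), and in Fed it was at 3.04 ± 2.02 CPM. Of 15 genes of the PGC-1 and biogenesis list, 3 were higher (20%) and 2 lower (13.3%), near the 19.7% and 14.7% of all genes. With upper-quartile scaling or with all 38 libraries 5 were lower. Perm1, a muscle regulator downstream of PGC-1α, was at 37.4 to 55.0 CPM in HiT and 69.5 to 78.7 CPM in Pre (log2 fold change −0.67), and Esrra, the nuclear receptor ERRα, did not pass the test (log2 fold change −0.40, adjusted p = 0.068).

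Heat production by calcium pumping rests on the sarcoplasmic reticulum. Of 15 genes of calcium cycling and uncoupling, 9 were lower in HiT and 1 higher (median log2 fold change −0.35). Stac3, which couples the voltage sensor to the release channel, was at 50.7, 55.1, 51.6 and 57.9 CPM in HiT and 100.2, 98.4, 105 and 103 CPM in Pre (log2 fold change −0.92, SE 0.11, adjusted p = 7.7e-07). Jph2, which holds the membranes of the triad together, was at 145 to 159.8 CPM against 249 to 271 CPM (log2 fold change −0.75). For both genes Dep was near HiT (58.5 ± 10.01 and 152 ± 19.5 CPM). Atp2a2, the calcium pump of slow fibres, was at 1708, 1262, 1618 and 1108 CPM in HiT and 2345, 1810, 2384 and 2563 CPM in Pre, with no overlap (log2 fold change −0.68, adjusted p = 0.0072). Sln, sarcolipin, which uncouples that pump, overlapped between HiT (225 to 318 CPM) and Pre (171 to 231 CPM), with a log2 fold change of 0.35 (adjusted p = 0.33). Sln was above Dep (115 ± 28.99 CPM, log2 difference 1.23, adjusted p = 0.0013) and above Fed (121 ± 30.9 CPM, log2 difference 1.15). Ucp2, a mitochondrial carrier, was the member that rose, at 14.4 to 27.5 CPM against 6.81 to 8.75 CPM (log2 fold change 1.51).

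Chaperone genes were called higher in 13 of 33 cases and lower in 1 (median log2 fold change 0.19), but this count was 2 higher and 1 lower with library size alone and 8 higher and 3 lower after also leaving out the 10 largest clusters. The small heat shock protein Hspb1 was the clear case. It was at 1029, 885, 690.1 and 677 CPM in HiT and 186, 176, 178 and 219 CPM in Pre (log2 fold change 2.11, SE 0.15, adjusted p = 2.4e-10), and it was higher than in Dep (388 ± 54.3 CPM, log2 difference 1.08, adjusted p = 5.4e-06). Cryab, of the same family, was at 7969 to 10440 CPM in HiT and 5309 to 6739 CPM in Pre (log2 fold change 0.57), and Hspb6, also of that family, was lower (log2 fold change −0.53). The inducible Hspa1a, which has a near-identical neighbour in Hspa1b, overlapped at 105 to 148 CPM in HiT and 72.8 to 154 CPM in Pre (log2 fold change 0.16, adjusted p = 0.65). Of 16 cold-inducible RNA-binding proteins and splicing regulators, 4 rose (25%) and 1 fell (6.25%). Over all genes 19.7% were higher and 14.7% lower. Rbm3, an RNA-binding protein induced by cold, was the one that fell, at 24.4 to 36.9 CPM in HiT and 38.9 to 47.4 CPM in Pre (log2 fold change −0.48, SE 0.11, adjusted p = 0.0012). Srsf7, a splicing factor, was at 42.5 to 51.4 CPM in HiT and 33.9 to 36.4 CPM in Pre (log2 fold change 0.46). The 4 rises of this list came to 1 with upper-quartile scaling or without HiT 1, to 2 without HiT 4 and to 0 with library size alone.

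Of 18 clock genes, 1 was higher (5.56%) and 3 lower (16.7%) in these samples taken at the same hour. Over all genes 19.7% were higher and 14.7% lower. Hlf, a PAR-domain output factor, was at 2.06 to 2.89 CPM in HiT and 4.89 to 6.08 CPM in Pre (log2 fold change −1.22, SE 0.22, adjusted p = 9.1e-05). Per1 was at 13.1, 12.6, 20.6 and 9.76 CPM in HiT and 7.84, 5.66, 5.68 and 10.9 CPM in Pre, which overlap (log2 fold change 0.90, adjusted p = 0.0089). The 1 rise was lost with library size alone or without HiT 3, and became 2 without HiT 2, HiT 4 or Pre 1.

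Genes of mechanical load, injury and regeneration were higher in HiT than in Pre. Of 28 such genes, 17 were higher in HiT and none lower (median log2 fold change 1.06). Their summed level was 10090 to 11720 CPM in HiT and 5042 to 5910 CPM in Pre. The same sum was 8517 to 10870 CPM in Dep, which overlapped HiT, and 5629 to 6607 CPM in Fed. Ankrd1, a titin-associated stretch sensor, was at 605, 665, 549.9 and 510 CPM in HiT and 30.2, 31.6, 31.1 and 32.9 CPM in Pre (log2 fold change 4.21, SE 0.20, adjusted p = 1.1e-13). Its mean was 78.4 ± 27.6 CPM in Dep (log2 difference of HiT from Dep 2.89, adjusted p = 1.8e-10) and 52.8 ± 8.26 CPM in Fed. Mybph, a myosin-binding protein seen in remodelling muscle, was at 91.1, 110, 102 and 91.3 CPM in HiT and 0.83, 1.95, 3.77 and 5.25 CPM in Pre (log2 fold change 5.07, SE 0.73), with a Dep mean of 2.14 ± 1.21 CPM. Tnc, tenascin C, a matrix protein of loaded and injured tissue, was at 142, 130.1, 62.3 and 131 CPM in HiT and 3.77 to 7.71 CPM in Pre (log2 fold change 4.26, SE 0.35). HiT 3 was the lowest of its group in Tnc and still far above the highest Pre library. Mustn1, a small nuclear protein of regenerating muscle, was at 1110 to 1438 CPM in HiT and 197 to 252 CPM in Pre (log2 fold change 2.53). Myog, the factor that carries myoblasts into differentiation, was at 25.4 to 29.9 CPM in HiT and 5.65 to 7.87 CPM in Pre (log2 fold change 2.06, adjusted p = 1.8e-09), with a Dep mean of 6.55 ± 1.90 CPM. Ankrd2, Csrp3, Flnc and Xirp1, all of the sarcomere's stress-sensing machinery, rose by 1.46, 1.97, 1.37 and 1.48 on the log2 scale, and Csrp3 did not pass the test against Dep (log2 difference 0.40, adjusted p = 0.12). Sarcomere genes of embryonic muscle were low in level but rose too. Myh3 was at 5.44 to 11.3 CPM in HiT and 3.02 to 4.75 CPM in Pre (log2 fold change 1.06), and Actc1 rose by 1.18. Myod1 (log2 fold change −0.41) and Ncam1 (0.23) did not pass. In all, 12 of the 28 were higher in HiT than in Dep and 3 lower, and 16 were higher and 2 lower in HiT than in Fed.

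Genes of the adult contractile apparatus fell in part. Of 10 slow fibre genes 4 fell (40%) and none rose (median log2 fold change −0.33). Over all genes 14.7% were lower and 19.7% higher. With upper-quartile scaling or with all 38 libraries 7 of the slow fibre genes were lower. Myh7, the slow myosin heavy chain, was at 852, 930.1, 1068 and 947 CPM in HiT and 1426, 1124, 1250 and 1390 CPM in Pre (log2 fold change −0.45, SE 0.14, adjusted p = 0.013), and Myl2, its regulatory light chain, fell by 0.65 on the log2 scale. Of 16 fast fibre genes 4 fell (25%) and 1 rose (6.25%). The falls came to 2 without HiT 1 or without Pre 2 and to 6 with upper-quartile scaling. The rise, of Mylk2, was lost when any 1 of the 8 libraries was left out, with library size alone and with upper-quartile scaling. Myh4, the fastest myosin heavy chain, was at 5.53, 6.51, 2.62 and 3.72 CPM in HiT and 4.66, 192, 67.4 and 438 CPM in Pre. Pre 1 lay among the HiT values while the other Pre libraries were far above, and Fed was as scattered (672 ± 699 CPM), so the log2 fold change of −5.24 (SE 1.48, adjusted p = 0.0074) rests on 3 of 4 Pre libraries, and a two-sided exact permutation test on log2(TPM + 0.1) gave p = 0.0857. Other type IIB and fast genes, Actn3 and Pvalb, were also scattered in Pre and did not pass (adjusted p = 0.26 and 0.25).

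**Figure D3:**
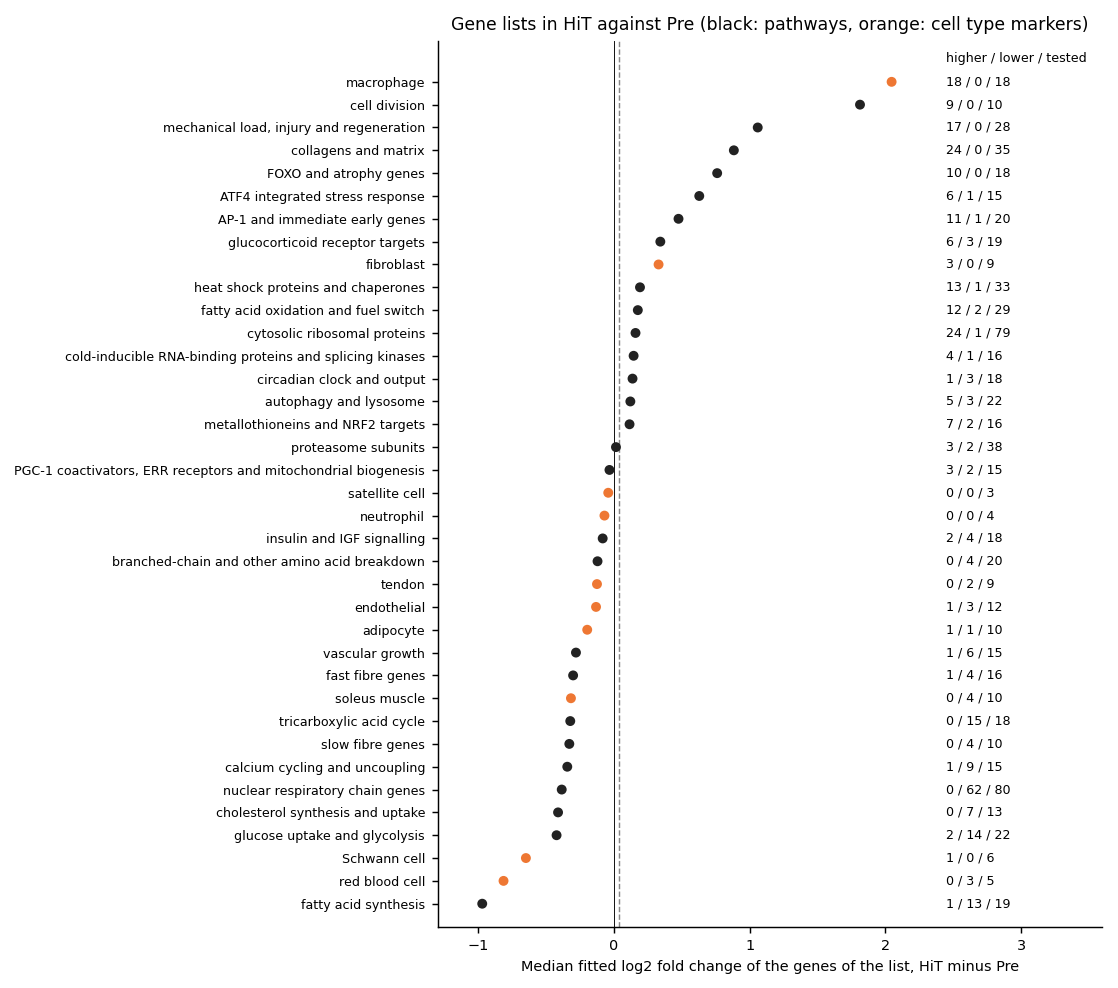
Median fitted log2 fold change of HiT over Pre (horizontal axis) for each of 37 gene lists (vertical axis), with the number of genes higher in HiT, lower in HiT and tested. Macrophage markers, cell division, mechanical load and matrix genes have the highest medians, and fatty acid synthesis has the lowest; the dashed line is the median of all genes (0.03).

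Matrix genes rose with the load genes. Of 35 collagen and matrix genes, 24 were higher in HiT and none lower (median log2 fold change 0.88), and 20 of the 35 had all HiT values above all Pre values, against 20% of all genes. Col3a1, the collagen of young scar and loose tissue, was at 1310, 953, 655 and 1127 CPM in HiT and 168, 296, 222 and 181 CPM in Pre (log2 fold change 2.22, SE 0.28, adjusted p = 1.3e-06). Lox, which cross-links collagen, was at 232, 211, 106 and 212 CPM in HiT and 35.4 to 51.1 CPM in Pre (log2 fold change 2.18), and Timp1, an inhibitor of matrix proteases, was at 9.85 to 17.7 CPM against 1.501 to 3.16 CPM (log2 fold change 2.55). Postn, periostin, was at 214 to 339 CPM in HiT and 79.4 to 90.8 CPM in Pre (log2 fold change 1.75). Col1a1, the main fibrillar collagen, overlapped: it was at 2944, 2177, 1210 and 2544 CPM in HiT and 1237, 1648, 1491 and 1324 CPM in Pre (log2 fold change 0.64, adjusted p = 0.083). Dcn and Col15a1 stood near 0 (log2 fold changes −0.05 and −0.03). The summed level of the list was 9807, 7777, 5216 and 8365 CPM in HiT and 4278 to 5034 CPM in Pre, so that HiT 3 was close to Pre. Against Dep, 23 of the 35 were higher in HiT and 1 lower. Fibroblast markers moved in part, with 3 of 9 higher (Pi16, Cd34 and Ly6a), 5 without HiT 3 and 1 with library size alone, and a summed level of 2391 to 4080 CPM in HiT against 2443 to 3003 CPM in Pre, and their part in the rise of the matrix genes was not tested.

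Genes of cell division and histones were among the furthest apart. Only 10 of 40 cell division genes had a promoter in the table, and 9 of these were higher in HiT. The mean levels of Birc5, Ccna2 and Cdc20 were under 1 CPM in every other group of the run, so these genes may be in the table through HiT alone, and the count describes the 10 genes and not the whole list. Birc5, survivin, of the chromosomal passenger complex, was at 11.1, 9.10, 5.04 and 9.01 CPM in HiT and from 0 to 0.20 CPM in Pre (log2 fold change 6.40, SE 0.80, adjusted p = 1.2e-06), and Ccna2, cyclin A2, was at 9.44, 8.07, 3.98 and 9.01 CPM against 0.04 to 0.18 CPM (log2 fold change 6.21, SE 1.00). Cdc20, an activator of the anaphase-promoting complex, was at 6.52 to 17.4 CPM in HiT and 0.36 to 0.90 CPM in Pre (log2 fold change 4.50). Pcna, the replication clamp, which also serves repair, differed less (14.9 to 20.6 CPM against 12.3 to 14.1 CPM, log2 fold change 0.43). The histone genes whose messages are made in S phase showed the same pattern. Hist1h2ah was at 59.7, 62.2, 23.3 and 60.2 CPM in HiT and 0.47 to 1.22 CPM in Pre (log2 fold change 5.79, SE 0.82), and Hist1h3b was at 86.2, 79.3, 29.5 and 71.0 CPM in HiT and 0.79 to 2.02 CPM in Pre (log2 fold change 5.41). HiT 3 was the lowest HiT library by a wide margin in both. The family as a whole was counted after these values had been seen. Of 58 genes in the histone clusters, 49 were higher in HiT and none lower. Their median log2 fold change was 3.20, and over all genes 19.7% were higher and 14.7% lower. Whether any of the 58 is in the table through HiT alone was not tested, and the count does not describe the whole family. The summed level of the 58 was 6031, 6263, 3569 and 5883 CPM in HiT, 2699 to 3060 CPM in Pre and 2319 to 4027 CPM in Dep. Members of this family are near copies of each other, so reads may be split among them.

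Macrophage genes rose. Of 26 macrophage markers 18 had a promoter in the table, and these 18 were higher in HiT than in Pre (median log2 fold change 2.05) and than in Dep. Over all genes 19.7% were higher than in Pre, and 15.3% of all clusters were higher than in Dep. Whether any of the 18 is in the table through HiT alone was not tested, and the count does not describe the whole list. Cd68, a lysosomal glycoprotein of macrophages, was at 21.2, 23.7, 12.9 and 17.8 CPM in HiT and 1.95, 2.71, 1.87 and 1.73 CPM in Pre (log2 fold change 3.19, SE 0.28, adjusted p = 7.1e-09). Lyz2, lysozyme, was at 189, 125, 79.8 and 139 CPM in HiT and 22.9 to 34.2 CPM in Pre (log2 fold change 2.17), and C1qa, a complement chain made by tissue macrophages, was at 14.4 to 30.3 CPM against 5.31 to 7.29 CPM (log2 fold change 1.97). Markers of resident, repair-type macrophages rose too, with Cd163 at 15.96 to 27.1 CPM against 3.04 to 7.47 CPM and Mrc1 at 5.87 to 14.6 CPM against 2.78 to 3.47 CPM. Arg1, arginase 1, another gene of that state, was at 15.9, 9.13, 5.003 and 7.75 CPM in HiT. In Pre it was at 0 to 0.11 CPM (3, 1, 0 and 3 tags, log2 fold change 7.15, SE 1.64, adjusted p = 0.0014). Arg1 was variable in Fed (3.41 ± 4.17 CPM) and did not pass the test there (adjusted p = 0.31). The summed level of the markers was 677, 501, 294 and 494 CPM in HiT, 102 to 157 CPM in Pre and 90.6 to 185 CPM in Dep. The defining markers Adgre1, Itgam, Cx3cr1 and Ccr2 had no promoter in the table. HiT 3 was lowest and HiT 1 highest in macrophage and in matrix genes alike.

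**Figure D4:**
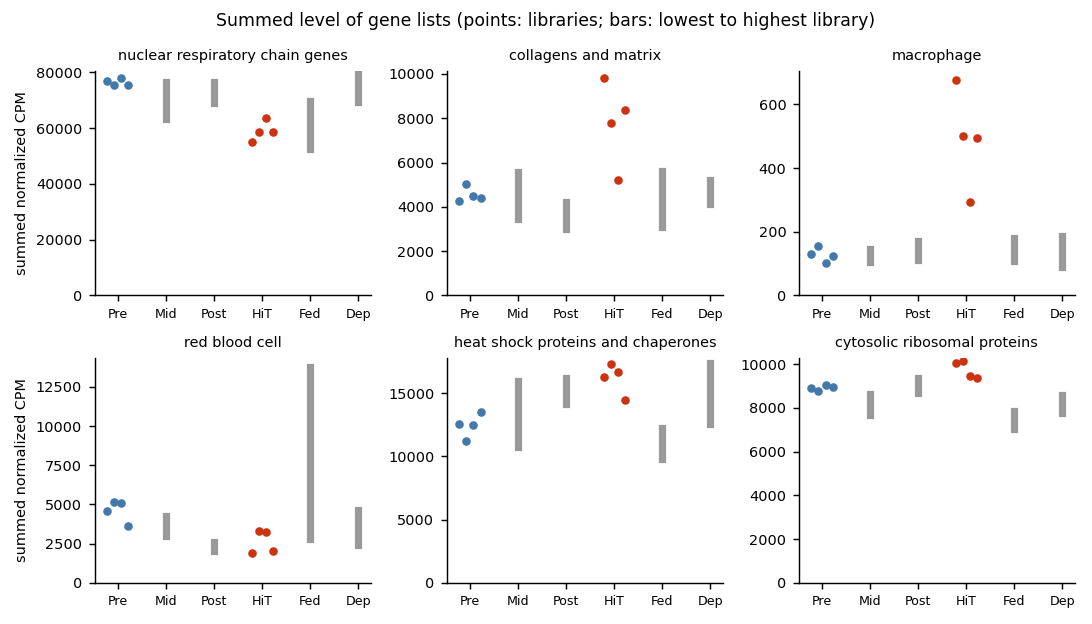
Summed normalized CPM (vertical axes, from 0) of 6 gene lists in the groups of the run. Points are HiT (red) and Pre (blue) libraries and grey bars run from the lowest to the highest library of the other groups; the HiT libraries exceed every other library in macrophage genes (lowest HiT library 294 CPM) and lie below the Pre libraries in respiratory chain genes.

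Other cell types moved less. None of 4 neutrophil markers and none of 3 satellite cell markers passed the test, and the summed neutrophil level was 0.34 to 0.85 CPM in HiT and 0.12 to 0.94 CPM in Pre. In Dep that sum ran from 0.28 to 132.6 CPM, the part of which in the differences between HiT and Dep was not tested. Haemoglobin genes, whose copies are near-identical, were lower: Hba-a1 was at 623, 1111, 1057 and 665 CPM in HiT and 1225 to 1712 CPM in Pre (log2 fold change −0.82, adjusted p = 0.046). All 3 red cell calls were lost when HiT 1, HiT 4, Pre 1, Pre 2 or Pre 3 was left out. Of 12 endothelial markers 3 fell (25%) and 1 rose (8.33%), beside 14.7% and 19.7% of all genes. Kdr, Emcn and Tie1 fell by 0.72, 0.58 and 0.53 on the log2 scale. Cldn5, a tight junction protein, rose, at 52.2 to 90.2 CPM in HiT and 25.4 to 28.9 CPM in Pre. With upper-quartile scaling or all 38 libraries 5 endothelial markers were lower. Kdr is the VEGF receptor, and the vascular growth list as a whole had 6 of 15 genes lower and 1 higher, the rise being lost with library size alone. Vegfb, a VEGF of oxidative tissue, was at 54.2 to 79.3 CPM in HiT and 104 to 143 CPM in Pre (log2 fold change −0.79), while Hif1a was the gene that rose (log2 fold change 0.70). Schwann cell genes were uneven in Pre, with Mbp at 145 CPM in Pre 2 and 20.7 to 30.8 CPM in the other Pre libraries, and Egr2 alone of 6 passed, a call that was lost without HiT 2, HiT 4, Pre 1 or Pre 3, with the HiT and Pre libraries alone and with library size alone. Of 9 tendon markers 2 fell (22.2%), Chad and Scx. Of these calls 1 was lost without HiT 3, HiT 4, Pre 2, Pre 3 or Pre 4.

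Many stress and immediate early genes rose in HiT. Of 20 genes of the AP-1 list, 11 were higher and 1 lower, and the rises came to 3 with library size alone, 6 without Pre 1 and 7 without HiT 4. The fall was lost without HiT 2, HiT 4, Pre 3 or Pre 4 and with library size alone. Junb was at 19.2, 16.3, 16.5 and 17.4 CPM in HiT and 3.57 to 4.66 CPM in Pre (log2 fold change 2.03, SE 0.15, adjusted p = 3.6e-10), and its Dep mean of 8.53 ± 0.99 CPM lay between them. Fos was at 6.48 to 10.6 CPM in HiT and 2.05 to 2.68 CPM in Pre (log2 fold change 1.82). Atf3, a stress-induced repressor of the same family, used a promoter that was near silent in Pre. The upstream start at chr1:191217942 was at 24.2, 18.3, 36.8 and 15.6 CPM in HiT and 0.03 to 0.43 CPM in Pre (log2 fold change 6.74, SE 1.01, adjusted p = 1.2e-05), whereas the start 34686 bases downstream overlapped, at 7.07 to 12.8 CPM and 4.58 to 10.1 CPM (log2 fold change 0.47, adjusted p = 0.2). In Dep the order was reversed, with 7.72 ± 7.53 CPM upstream and 31.3 ± 7.43 CPM downstream, and HiT differed from Dep at the downstream start (log2 difference −1.65, adjusted p = 7.6e-05) and not by the test at the upstream one (1.62, adjusted p = 0.11).

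Of 15 ATF4 targets of the integrated stress response, 6 rose and 1 fell. Psat1, of serine synthesis, was at 23.6, 16.1, 11.8 and 20.6 CPM in HiT and 3.33 to 6.08 CPM in Pre (log2 fold change 1.94, SE 0.25), and Mthfd2, of mitochondrial folate metabolism, at 7.31 to 11.99 CPM against 2.76 to 4.07 CPM (log2 fold change 1.59). Ddit3, which encodes CHOP and is the death-linked arm of that response, was the one that fell, at 24.1 to 34.2 CPM in HiT and 52.8 to 64.9 CPM in Pre (log2 fold change −1.05, adjusted p = 6e-06). Chac1 and Sesn2 did not pass (adjusted p = 0.11 and 0.14).

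Both metallothionein genes and Hmox1 were high in HiT and in Dep. Mt2, metallothionein 2, was at 502, 541, 391 and 389 CPM in HiT and 12.9 to 25.7 CPM in Pre (log2 fold change 4.51, SE 0.61, adjusted p = 3.8e-06), with Dep at 518 ± 237 CPM. Mt1 was at 447 to 601 CPM against 68.0 to 109 CPM (log2 fold change 2.52). Hmox1, haem oxygenase, was at 49.7, 75.5, 52.9 and 42.5 CPM in HiT and 4.38 to 6.55 CPM in Pre (log2 fold change 3.26, SE 0.82, adjusted p = 0.0032); Dep was higher and scattered at 212 ± 132.5 CPM. Tfrc, the transferrin receptor that brings in iron, was at 7.001, 8.24, 9.47 and 6.79 CPM in HiT and 55.1, 68.6, 71.9 and 75.2 CPM in Pre (log2 fold change −3.10, SE 0.23, adjusted p = 4.4e-10). Dep held 14.4 ± 0.80 CPM of Tfrc and Fed 55.1 ± 6.91 CPM, and HiT was below both by the test. Of 16 metallothionein and NRF2 target genes 7 rose and 2 fell, and of these NRF2 targets Gclm was higher (log2 fold change 0.96) and Nqo1 lower (−0.99).

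Hormone-linked genes were mixed. Of 19 glucocorticoid receptor targets 6 rose (31.6%) and 3 fell (15.8%), beside 19.7% and 14.7% of all genes. The rises included Mt1, Mt2 and Angptl4, which answer to other signals as well. Cebpd also rose (70.8 to 109 CPM in HiT, 24.0 to 28.1 CPM in Pre, log2 fold change 1.74). Fkbp5 (log2 fold change 0.26) and Tsc22d3 (0.62), which respond closely to the hormone, did not pass. Sgk1 fell (log2 fold change −0.84), as did Nr3c1, the receptor itself (−0.77). Of 18 insulin and IGF genes 2 rose (11.1%) and 4 fell (22.2%). Irs2, the insulin receptor substrate that FOXO induces, was at 55.4, 44.9, 93.4 and 37.8 CPM in HiT and 22.8 to 36.2 CPM in Pre (log2 fold change 1.06), and Grb14, an inhibitor of the insulin receptor, was at 6.60 to 12.5 CPM against 18.97 to 26.5 CPM (log2 fold change −1.20). The 2 rises of that list were lost with library size alone.

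Protein synthesis and breakdown showed small shifts whose number of calls hung on the scaling. Of 79 cytosolic ribosomal protein genes, 24 were higher and 1 lower in HiT with TMM (median log2 fold change 0.16), 15 and 2 with upper-quartile scaling, and 1 and 1 with library size alone, where the median was −0.01 beside −0.13 for all clusters. The median of all clusters was 0.04 with TMM. With upper-quartile scaling the ribosomal median was 0.08 beside −0.03 for all clusters. Rps6 was at 33.9 to 40.0 CPM in HiT and 26.02 to 26.8 CPM in Pre (log2 fold change 0.53, SE 0.08), and Rpl3 was at 10.01 to 13.03 CPM against 4.69 to 7.13 CPM (log2 fold change 0.97). Rpl3l, the muscle paralogue of Rpl3, was the one that fell, at 66.9 to 70.5 CPM in HiT and 98.7 to 106 CPM in Pre (log2 fold change −0.57, adjusted p = 7.6e-06). In the same fit 48 of the 79 were higher in HiT than in Dep and 72 higher than in Fed, with 1 lower in each. Of all clusters, 15.3% were higher and 11.3% lower than in Dep, and 23.3% higher and 20% lower than in Fed. The ribosomal counts against Dep and Fed were made with TMM and not with the other scalings. Of 38 proteasome genes 3 rose (7.9%) and 2 fell (5.3%), with a median of 0.01, beside 19.7% and 14.7% of all genes. Leaving out single libraries moved the proteasome counts between 1 and 4. Both proteasome counts were 0 with library size alone. Of 20 genes of amino acid breakdown 4 fell (20%) and none rose. The falls came to 2 without HiT 2 or without Pre 2 and to 7 with upper-quartile scaling. Got1, the cytosolic aspartate aminotransferase, was at 159 to 215 CPM in HiT and 284 to 362 CPM in Pre (log2 fold change −0.74).

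Some of the largest differences lay outside these lists. Gm8818 was at 11.5, 7.34, 16.5 and 10.7 CPM in HiT and at 0, 0, 0.16 and 0.14 CPM in Pre 1 to 4. Crct1 was at 5.92, 2.76, 1.44 and 3.42 CPM in HiT (209, 80, 38 and 68 tags). In Pre it was at 0 to 0.04 CPM (1, 1, 0 and 1 tags, log2 fold change 6.76). Among the falls, Hr, a corepressor of the thyroid hormone receptor, was at 1.08, 1.00, 0.87 and 1.01 CPM in HiT and 7.31 to 8.58 CPM in Pre (log2 fold change −2.99, SE 0.21, adjusted p = 2.4e-10), and HiT was also below Dep (4.18 ± 0.86 CPM, log2 difference −2.08, adjusted p = 1.9e-07). Lrrc38, an auxiliary subunit of a potassium channel, was at 1.31 to 1.42 CPM in HiT and 13.7 to 17.4 CPM in Pre (log2 fold change −3.60), with Dep near HiT at 1.79 ± 0.68 CPM. Mrap, an accessory protein of the melanocortin receptors, was more variable (0.79 to 1.51 CPM in HiT, 2.76 to 12.8 CPM in Pre).

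Because CAGE separates the promoters of a gene, starts of one gene could be seen to part. Of 458 genes with more than 1 promoter tested, 74 had 2 or more promoters called in the same direction, 204 had 1 called, 154 had none called, and 26 had promoters called in opposite directions, Ppargc1a among them. Over all clusters 18.5% were called higher and 14.9% lower, and whether 26 exceeds the count those shares would give was not tested. Rtn4, which encodes the reticulon Nogo, had an upstream start at 132, 121, 105 and 112 CPM in HiT and 69.8, 62.1, 60.4 and 67.1 CPM in Pre (log2 fold change 0.86, SE 0.10), and a start 25758 bases downstream at 184 to 201 CPM in HiT and 279 to 316 CPM in Pre (log2 fold change −0.61, SE 0.09). The upstream share of that pair was 35.4 to 39.9% in HiT and 16.9 to 19.99% in Pre. Casz1, a zinc finger factor, had an upstream start that fell (log2 fold change −0.68) and a start 96729 bases downstream that rose (1.27), so that the upstream share went from 77.1 to 83.4% in Pre to 37.1 to 58.8% in HiT. Slc30a2, a zinc exporter, had starts 812 bases apart at 1.90 to 3.21 CPM against 0.38 to 0.79 CPM (upstream) and 0.93 to 1.87 CPM against 3.77 to 5.47 CPM (downstream). In the same direction but unequally, the upstream promoter of Acaca, the cytosolic acetyl-CoA carboxylase, was at 0.23 to 0.34 CPM in HiT and 8.72 to 20.5 CPM in Pre (log2 fold change −5.73, SE 0.73), while the promoter 6533 bases downstream was at 9.31 to 10.2 CPM against 14.6 to 21.8 CPM (log2 fold change −0.97). Pcx, pyruvate carboxylase, kept its upstream promoter (10.1 to 14.3 CPM in HiT, 11.7 to 16.2 CPM in Pre, adjusted p = 0.1), and its promoter 83818 bases downstream was at 0.15 to 0.87 CPM in HiT and 4.57 to 11.8 CPM in Pre (log2 fold change −4.15).

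**Figure D5:**
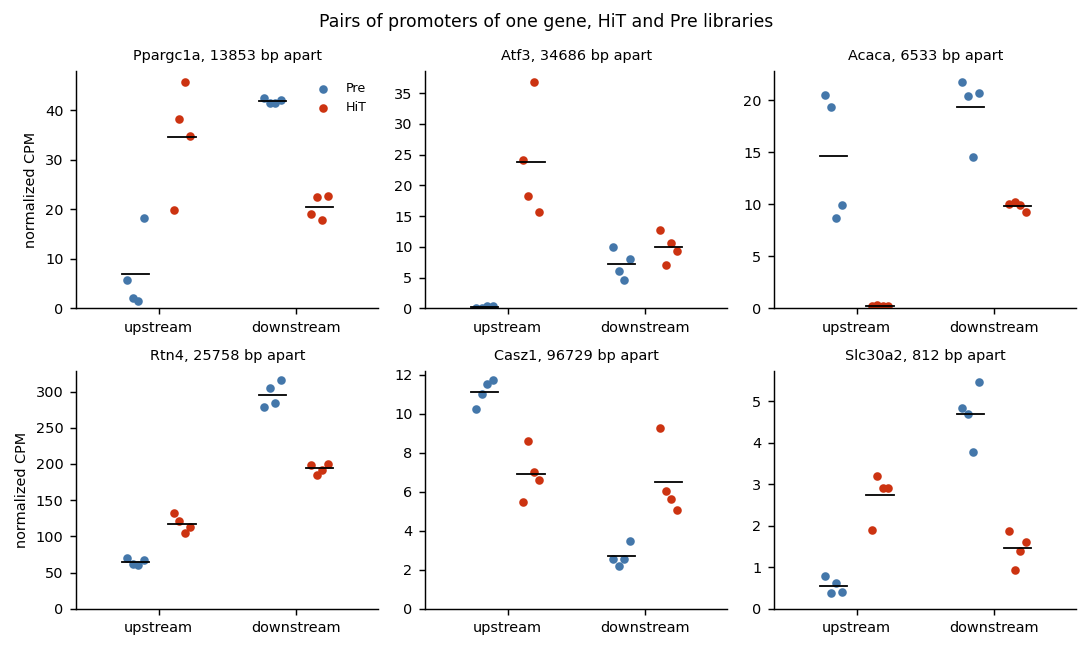
Normalized CPM (vertical axes, from 0) of the upstream and downstream promoters of 6 genes in Pre (blue) and HiT (red) libraries, with black lines at the means and the distance between the peaks in each title. In Ppargc1a, Rtn4, Casz1 and Slc30a2 the promoters of a pair moved in opposite directions, in Atf3 the upstream promoter was called and the downstream one was not, and in Acaca both fell, the upstream one from 8.72 to 20.5 CPM in Pre to 0.23 to 0.34 CPM in HiT.

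Clusters that could not be assigned to a gene, because no annotated start lay within 500 bases, gave 118 of 1185 (9.96%) higher and 159 (13.4%) lower, beside 19.6% and 15.1% of the 9591 assigned clusters. They were outside the rule for naming and were picked after their values had been seen. The most abundant of the large rises, at chr3:138061804-138062137 on the plus strand, was at 76.6, 83.2, 61.1 and 59.6 CPM in HiT and 0 to 0.58 CPM in Pre, with a Dep mean of 5.99 ± 4.17 CPM. A cluster at chr5:72912225-72912362, plus strand, was at 9.32 to 16.1 CPM in HiT and 0.03 to 0.37 CPM in Pre. The unassigned clusters that fell the most lay within Myh4 and shared its scatter across the Pre libraries.

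The median cluster width was 281 bases over all clusters, 259 among the higher and 341 among the lower ones, and the median GC content of the RefSeq windows, which run from 250 bases before to 50 after the annotated start and were found for 4929 clusters, was 62.3% over all, 61.5% among the higher and 62.3% among the lower ones. TATAAA, on either strand, was in 11.5% of the windows of higher promoters, 7.83% of lower ones and 8.16% of all. Leaving out the histone genes brought the share among the higher ones to 9.37%. The E2F letters TTTCGCGC were in 2.20% of higher, 0.70% of lower and 0.83% of all windows (1.53% of the higher ones without histone genes). CACGTG, the E-box, was in 12.1%, 7.97% and 10.7%, and TGACGTCA, the CRE, in 2.82%, 5.03% and 3.88%, in the same order. CCAAT was in 42.1%, 39.4% and 38.9%. TGACTCA (AP-1) was in 3.56%, 3.36% and 3.21%, GTAAACA (FOXO) in 2.72%, 1.68% and 2.54%, and GAANNTTC (heat shock) in 6.70%, 5.31% and 5.13%. These shares are a description and were not tested.

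For a handful of single promoters the library values were also compared by a two-sided exact permutation test on log2(TPM + 0.1). With 4 libraries against 4 there are 70 divisions and the smallest p is 0.0286. Pdk4, Fasn, Tnc, Cd68, Hmox1 and the upstream Ppargc1a promoter gave that value, Per2 gave p = 0.0571 and Sln p = 0.629 by the same exact test.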

How the data were processed

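Soleus RNA of 38 mice was profiled by nAnT-iCAGE. The 28 libraries whose columns are named in 1 form (the run), of which 4 are HiT and 4 Pre, were fitted together. The authors mapped reads to mm10 (bwa and hisat2 are in the submitters' processing notes), built promoter clusters with PromoterPipeline and deposited tag counts for each of 10819 clusters. The authors also deposited the same table as TPM, used here for the exact tests and to choose named promoters. A gene was given to a cluster whose peak lay within 500 bases of an annotated GENCODE M21 transcript start on the same strand.

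Counts were scaled by TMM and tested with edgeR 4.0.16 (quasi-likelihood F test, Benjamini-Hochberg adjusted p below 0.05) in R 4.3.3 on all 28 libraries. Printed levels are tags per 1000000 after that scaling (CPM). DESeq2 1.42.0 served as an alternative. The scripts were tested on simulated data. In each list, the cluster with the highest mean TPM stood for a gene. Named were the 12 assigned promoters with the largest change in each direction among called ones without overlap and with at least 1 TPM in a group, up to 5 called members per list by smallest p and members whose role a result turns on, up to 5 genes with promoters called in opposite directions, and cell markers. The members and lists were chosen with earlier results of these data known. Replicate numbers did not pair the samples. The closest pair of libraries within a group differed by more than sampling noise (24.6 chi-square units per cluster). Each library is from a separate mouse. Some items are not reported here.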

Additional observations from a re-analysis of the deposited data

Results flagged for a closer look

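Among 354 sets of 4 HiT or Pre values of the named promoters, 21 (5.93%) held a library whose gap to the next was large for the range of the set, where chance gives about 1 in 20. HiT 3 was low in Hist1h2ah (23.3 CPM, the other HiT libraries 59.7 to 62.2), Hist1h3c (26.6 against 68.4 to 70.01), Hist1h2af (19.6 against 43.8 to 47.1), Tnc (62.3 against 130.1 to 142), Lox (106 against 211 to 232) and Jph2 (145 against 158 to 159.8). HiT 3 was also the lowest HiT library in the summed macrophage, matrix and cell division lists.

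HiT 1 was high in Ulk1 (82.5 CPM, the others 56.5 to 60.1) and Lrrc38 (1.42 against 1.31 to 1.33) and low in Gabpa (35.7 against 39.3 to 39.9), and HiT 2 was low in Pdha1 (385 against 449 to 463). In Pre, Pre 4 was low in Gabpa (25.4 CPM) and Cs (629.7) and high in Ndufb9 (1511), Cacna1s (420.5), Srsf6 (26.3), Got1 (362) and the downstream Synpo2l promoter (11.4). Pre 1 was low in Lrrc38 (13.7), Pre 2 high in Grb14 (26.5), and Pre 3 high in Atp5g3 (408) and at 0 in Crct1, where the other Pre libraries had 1 tag each.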

How the results depend on the processing

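The count of promoters higher in HiT than in Pre (1997) was 584 with library size alone and, in an alternative chosen after seeing the data, 1171 with library size after leaving out the 10 largest clusters. With library size alone the calls between HiT and Dep came to 1108 (2861 with TMM) and those between HiT and Fed to 2961 (4657). The other settings kept these counts within 1.5 times: 1859 higher and 1873 lower with the HiT and Pre libraries alone, 2145 and 1928 with all 38 libraries, 2003 and 1762 by DESeq2. Leaving out 1 library gave 1643 to 1917 higher and 1341 to 1583 lower, 2255 to 3028 calls against Dep and 3893 to 4567 against Fed. With the replicate number as a block the counts were 1961 higher and 1547 lower, 2805 against Dep and 4529 against Fed. The numbers did not pair the samples (correlations of same-numbered deviations −0.24, 0.02, 0.20 and −0.30), and the block changed 1 named call, Tnnc2 (log2 fold change −0.32, adjusted p = 0.052).

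Of 177 named promoters, 133 kept their call in every one of 18 settings that gave a result and none reversed, and 2 histone promoters had no adjusted p from DESeq2. Calls were lost at 34 with library size alone, 11 with that scaling after leaving out the 10 largest clusters, 6 with upper-quartile scaling, 5 with 38 libraries, 4 with the HiT and Pre libraries alone and 6 to 13 without 1 library. Why they were lost was not tested. Groups of 4 limit the exact tests to p = 0.0286, and promoters at a few tags in Pre, such as Crct1 and Arg1, carry wide errors.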
